A study of Mus musculus with 6 samples.

Results

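The p53-MDM2 core circuit was examined as 7 genes in mouse MLL-AF9 leukemia, an acute myeloid leukemia driven by the fusion oncogene MLL-AF9. They are Trp53, which encodes p53, the ubiquitin ligases and p53 binding partners Mdm2, Mdm4 and Rchy1, the deubiquitinase Usp7, the phosphatase gene Ppm1d (Wip1) and Ccng1 (cyclin G1). The genes were chosen by symbol for their known place in the circuit, but with earlier results of these data known. All 7 had 1 entry of their own among the 26082 gene names measured. The RNA came from 6 leukemic C57BL/6J mice, whose leukemia cells were sorted from bone marrow. Vehicle alone was given orally to 3 mice and DS-5272, an inhibitor of the p53-MDM2 interaction, at 80 mg/kg to the other 3, and cells were taken 24 h later. Every sample carried MLL-AF9, introduced by retrovirus into c-Kit+ bone marrow progenitors that were then transplanted into recipient mice. By the paper's methods, leukemia cells from the spleens of such mice were passed on through several further transplantations. They were then injected into mice that had not been irradiated. The labels name no Trp53 deletion in any sample. The labels do not say whether the 6 mice received cells of 1 transduction, so the spread between mice may not include the spread between independently made leukemias.

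p53 is a transcription factor that is kept at low protein levels by Mdm2, which binds its transactivation domain and marks it with ubiquitin for degradation. Mdm2 is itself a transcriptional target of p53, and this closes a negative feedback loop that is widely used to read p53 activity. Mdm4 (MdmX) binds p53 as a partner of Mdm2, Rchy1 (Pirh2) is a further p53-inducible ligase, Usp7 removes ubiquitin from both Mdm2 and p53, and Wip1 and cyclin G1 are p53-inducible regulators that dampen the response. RNA levels report only on the transcript side of this circuit, since p53 itself is controlled mainly at the protein level.

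The promoter sequences are shown first because p53 binds DNA directly and most of the genes are known p53 targets. The RefSeq promoter windows (GRCm38.p6, 250 bases before to 50 after each gene start) were searched for the p53 consensus element, a pair of consensus decamers without spacer. The consensus is its own reverse complement, so a search along the strand of the gene covers both strands. The best 20 bases of each gene are given 5′ to 3′ on the strand of the gene. Bases that match the consensus are in capitals and mismatches in lower case.
Ccng1: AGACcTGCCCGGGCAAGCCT
Trp53: GGACTTGCCCttACTTGTTa
Mdm4: AGGtATGCTgtGGCAAGCCT
Ppm1d: GGGCggGggCGAGCTTGCTC
Usp7: GAGCAAGTaCGtGCgcGTCT
Mdm2: GAACTTGCCTAGcgAccaTT
Rchy1: cActATGaCaGAGCTTGTCT

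The match in Ccng1 stood apart, with 1 mismatch in 20 bases, with its first base at position -195 from the gene start, at chr11:40755462-40755481. Of 32851 windows of the same length, 0.0883% held a match with at most 1 mismatch. In its 250 upstream bases (chr11:40755287-40755536, minus strand) the element is in capitals here.
Ccng1 upstream: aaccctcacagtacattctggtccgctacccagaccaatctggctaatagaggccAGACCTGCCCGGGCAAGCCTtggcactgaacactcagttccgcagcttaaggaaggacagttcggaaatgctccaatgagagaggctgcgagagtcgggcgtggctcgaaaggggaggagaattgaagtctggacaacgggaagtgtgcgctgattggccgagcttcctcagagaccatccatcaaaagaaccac

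The other genes matched less well. Trp53 and Mdm4 each had 3 mismatches, as few as in 6.29% of all windows. Ppm1d and Usp7 had 4, a level reached by 30.2% of windows, and Mdm2 and Rchy1 had 5, a level reached by 76.6%. Mdm4 and Rchy1 each have 2 RefSeq starts, of which the better is shown, and the other window of each had 6 mismatches. The RefSeq window of Usp7 (chr16:8738293-8738592) lies inside the longer gene body annotated by GENCODE. An exact decamer was present in the windows of Trp53, Mdm2, Rchy1, Ppm1d and Ccng1 and in 8.36% of all windows. The p53 elements of Mdm2 lie, by textbook knowledge, in its first intron, which these windows do not cover, so that the lack of a good match here bears only on these letters.

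Levels were read as FPKM, the fragments of a gene scaled to the length of its transcript and to the mapped fragments of its library. Depth was estimated from the smallest steps of the FPKM values at 34700000 to 43100000 fragments in the vehicle samples and 23200000 to 32100000 in the DS-5272 samples, lowest in DS-5272 replicate 3. The values of the 7 genes then rest on about 815 to 19865 fragments each, if every gene is taken at its longest transcript, which puts the counting error of 1 value at about 0.71% to 3.50%. Markers of leukemia and myeloid cells summed to 531 to 736 FPKM in vehicle and 860 to 1528 FPKM in DS-5272 samples, and Itgam, a marker of mature myeloid cells, made up most of the higher sum (140 to 190 and 530 to 1087 FPKM). Meis1 was at 66.1 to 80.5 and 69.2 to 110 FPKM, while Hoxa9 had only a joint entry with other genes and was not read. Kit, the receptor that marks progenitors, had 30.5 to 45.0 FPKM in vehicle and 4.94 to 12.1 in DS-5272 samples, and Mpo (myeloperoxidase) had 140 to 325 and 3.25 to 12.2 FPKM. Macrophage markers summed to 60.2 to 115 FPKM in vehicle and 187 to 418 FPKM in DS-5272 samples, and erythroid markers to 1.19 to 3.24 and 11.5 to 140 FPKM. Both sums were highest in DS-5272 replicate 1. In vehicle, most of the macrophage sum was Vcam1 and Emr1 (Adgre1). Vcam1 had 36.6 to 82.8 FPKM in vehicle and 74.8 to 143 in DS-5272 samples, so its groups overlapped. The paper reports VCAM-1 protein, read by single-cell mass cytometry, as raised by DS-5272 in the c-Kit+ cells. That is another measure than the RNA of all sorted cells read here. Emr1 (16.7 to 23.3 and 59.8 to 116 FPKM) was highest in DS-5272 replicate 3, all other macrophage markers in replicate 1. C1qa had 0.719 to 2.15 FPKM in vehicle and 6.64 to 38.4 in DS-5272 samples, C1qb 1.53 to 2.95 and 14.1 to 58.2. C1qc had 0.80 to 2.03 and 9.42 to 49.2 FPKM, Cd5l 0.242 to 1.64 and 1.76 to 61.7. Mertk had 0.521 to 0.594 and 0.809 to 7.65 FPKM. Each of these was higher in every DS-5272 sample than in any vehicle sample. How far the macrophage sum measures macrophage content was not tested. The NK, T and B cell markers summed to at most 1.66, 0.791 and 5.02 FPKM in any sample, megakaryocyte markers to at most 6.95, and stroma and endothelium markers to 29.0 to 60.0 and 73.4 to 112 FPKM, nearly all of it Pecam1. The sums of the leukemia and myeloid, macrophage, erythroid, megakaryocyte, and stroma and endothelium markers were higher in every DS-5272 sample than in any vehicle sample. Those of NK and T cells overlapped between the groups. The B cell sum was slightly lower with DS-5272 (4.27 to 5.02 and 3.39 to 4.23 FPKM). The part of these marker sums in the differences below was not tested. In such bulk samples, more cells with a transcript and more transcript per cell cannot be told apart.

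Genes were called with limma on log2(FPKM + 1) over 11130 genes whose mean reached 1 FPKM, at an adjusted p of 0.05 over all of them. The 95% intervals given for single genes are not adjusted. Of the 7 genes, 1 was higher with DS-5272 (Rchy1) and 2 were lower (Trp53 and Usp7), in a table in which 24.2% of all genes tested were called higher and 22.0% lower, together 46.3%. Over all genes tested these were 2697 higher and 2451 lower, and the split became 1713 and 3555 with values scaled to a common total and 2233 and 3179 with a common upper quartile. The values of the 3 vehicle and 3 DS-5272 mice did not overlap for 6 of the 7 genes, 4 higher and 2 lower, whereas 61.8% of all genes tested had groups that did not overlap, 32.1% higher and 29.7% lower. When same-numbered mice were paired by a block in the fit, 3 genes were called higher, Mdm2, Ccng1 and Rchy1, and the same 2 lower, against 30.3% and 24.9% of all genes, together 55.1%. Changes of this kind were thus common in the whole table, and nothing is called particular to the circuit from these counts.

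**Figure D1:**
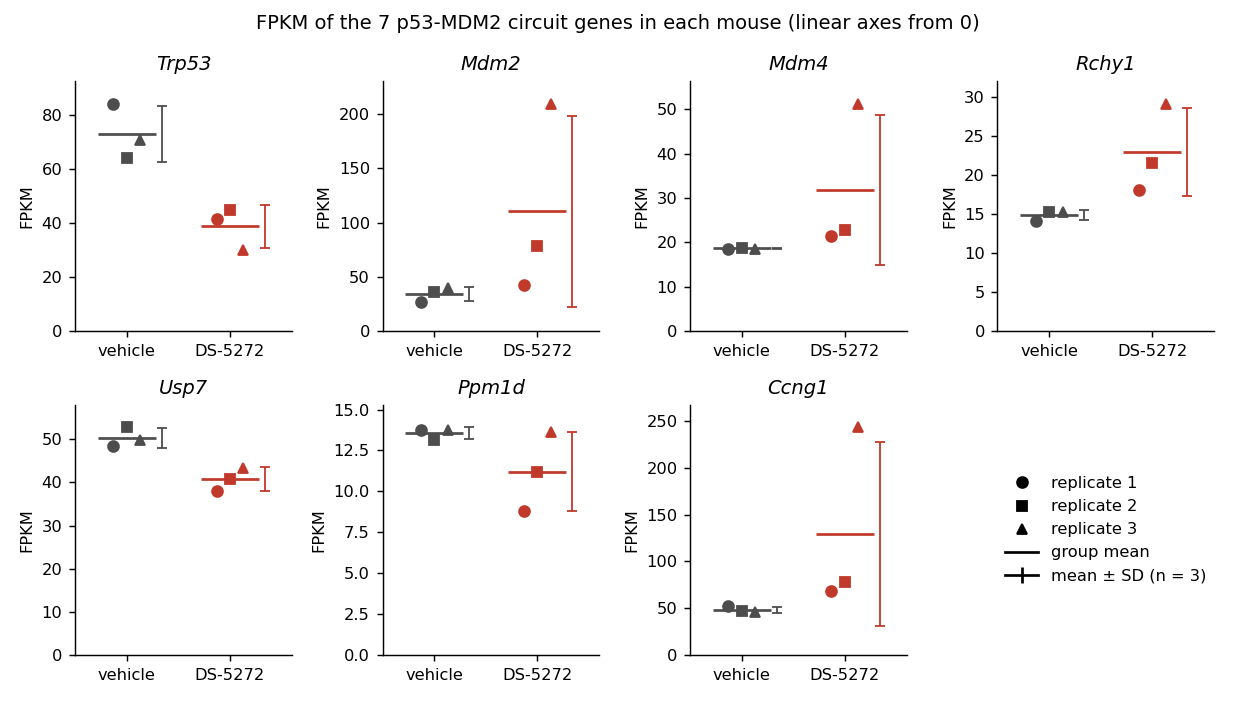
FPKM of the 7 circuit genes (linear axes from 0) in the 3 vehicle mice (gray) and 3 DS-5272 mice (red), with circle, square and triangle for replicates 1, 2 and 3, and the group mean and mean ± SD. Trp53 and Usp7 are lower in every DS-5272 mouse, Mdm2, Mdm4, Rchy1 and Ccng1 higher in every one, and the triangle of replicate 3 lies far above the other red points for Mdm2, Mdm4 and Ccng1.

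Trp53 (chr11:69580359-69591873, plus strand), the hub of the circuit, was the most abundant of the 7 genes in vehicle-treated leukemia. Its level was 84.1, 63.9 and 70.8 FPKM in the vehicle mice and 41.5, 44.8 and 30.0 FPKM in the DS-5272 mice. Every treated mouse was thus below every vehicle mouse, and DS-5272 replicate 3 was the lowest. The mean fell from 72.9 ± 10.3 to 38.8 ± 7.81 FPKM (SD, n = 3 each), to 0.531 of the vehicle mean. In limma the difference was -0.91 on the log2 scale (SE 0.18, 95% interval -1.33 to -0.48, adjusted p = 0.00863). The exact permutation test gave p = 0.1, the smallest that 3 mice against 3 allow. Trp53 kept this call in 16 of 17 alternative settings and lost it where a log2 fold change of at least 1 was also required. In the other 16 settings the adjusted p ran from 0.00529 to 0.0314 in limma.

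Mdm2 (chr10:117688875-117710758, minus strand), the main negative regulator of p53 and its best known feedback target, had 27.1, 36.3 and 40.0 FPKM in the vehicle mice and 42.6, 78.8 and 210 FPKM in the DS-5272 mice. The lowest treated value lay just above the highest vehicle value, and the treated mice spanned a range that reached far beyond it. The mean was 34.5 ± 6.64 FPKM in vehicle and 110 ± 87.9 FPKM in DS-5272 samples (SD, n = 3 each), a ratio of 3.20. The difference on the log2 scale was 1.36 (SE 0.53, 95% interval 0.10 to 2.63), which did not pass the threshold in limma (adjusted p = 0.073) and passed with the replicate block (adjusted p = 0.0148). Since the groups did not overlap, any pairing of the mice gives 3 of 3 higher. Same-numbered mice differed 1.57-fold, 2.17-fold and 5.24-fold. Without DS-5272 replicate 3 the difference was 0.75 (limma, adjusted p = 0.0925), and without DS-5272 replicate 1 it was 1.89 (adjusted p = 0.017).

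Mdm4 (chr1:132959484-133030561, minus strand), the Mdm2 paralog that binds p53 but is a weak ligase on its own, had a nearly uniform level in vehicle mice of 18.6, 18.9 and 18.6 FPKM. In the DS-5272 mice it had 21.4, 22.7 and 51.3 FPKM. The first 2 treated mice lay just above the vehicle mice, and replicate 3 far above them. The means were 18.7 ± 0.16 and 31.8 ± 16.9 FPKM (SD, n = 3 each), with a difference of 0.62 on the log2 scale (SE 0.31, 95% interval -0.13 to 1.37). It did not pass in limma (adjusted p = 0.145) or with the block (adjusted p = 0.082), and in no other alternative either. Without DS-5272 replicate 3 the difference was 0.23 (limma, adjusted p = 0.0699). With values scaled to a common total it was 0.36 (limma, adjusted p = 0.263), and the groups then overlapped.

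Rchy1 (chr5:91948904-91963068, minus strand), a RING ligase that marks p53 for degradation independently of Mdm2, had 14.1, 15.3 and 15.3 FPKM in vehicle and 18.1, 21.5 and 29.1 FPKM in DS-5272 samples. The groups did not overlap, and the treated mice were spread less widely than for Mdm2. The mean rose from 14.9 ± 0.66 to 22.9 ± 5.65 FPKM (SD, n = 3 each). It was the 1 gene of the 7 called higher in limma, with a difference of 0.56 on the log2 scale (SE 0.17, 95% interval 0.15 to 0.97, adjusted p = 0.0345). The call was lost when any one vehicle mouse was left out (limma, adjusted p 0.084 to 0.097), without DS-5272 replicate 2 (0.067), without the filter on low genes (0.060) and with values scaled to a common total (0.061), where the difference was 0.31. Of its exonic sequence, 680 nt (18.0%) overlap the pseudogene Thap6 on the opposite strand, which had 2.70 to 3.02 FPKM in vehicle and 4.0 to 8.03 FPKM in DS-5272 samples. Thap6 was called higher as well (limma, 0.77 on the log2 scale, SE 0.22, adjusted p = 0.026). The libraries were strand-specific, but whether strand was used in counting is not given in the sources used here, so reads of the shared stretch cannot be assigned with certainty.

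Usp7 (chr16:8689595-8792308, minus strand), also called HAUSP, had 48.4, 52.7 and 49.7 FPKM in vehicle and 37.9, 40.8 and 43.4 FPKM in DS-5272 samples. The groups did not overlap, and the treated mice were closer together in relation to their mean than for any of the other 6 genes. The mean fell from 50.3 ± 2.24 to 40.7 ± 2.75 FPKM (SD, n = 3 each), by 0.30 on the log2 scale (SE 0.09, limma, adjusted p = 0.0396). The call was lost when any one mouse other than DS-5272 replicate 3 was left out, at adjusted p 0.071 to 0.15 in limma. With values scaled to a common total the difference was -0.56 (limma, adjusted p = 0.00661).

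Ppm1d (chr11:85311244-85347066, plus strand), whose product Wip1 dephosphorylates p53 and the kinases that activate it, was at the lowest mean level of the 7 genes in both groups. It had 13.8, 13.1 and 13.7 FPKM in vehicle and 8.77, 11.2 and 13.7 FPKM in DS-5272 samples, and DS-5272 replicate 3 lay within the vehicle range. The difference of -0.27 on the log2 scale (SE 0.16, 95% interval -0.64 to 0.10) did not pass in limma (adjusted p = 0.189). It did pass in limma without DS-5272 replicate 3 (-0.41, adjusted p = 0.041), with values scaled to a common total (-0.52, adjusted p = 0.013) and with values scaled to a common upper quartile (-0.40, adjusted p = 0.034), each time as lower. Without DS-5272 replicate 1 the difference shrank to -0.12 (limma, adjusted p = 0.428). Ppm1d is known as a p53-inducible gene, and in none of the alternatives was its difference positive.

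Ccng1 (chr11:40748552-40755311, minus strand) encodes cyclin G1, which recruits protein phosphatase 2A (PP2A) to Mdm2. It is the gene with the near-consensus element shown above. It had 51.8, 46.5 and 46.4 FPKM in vehicle and 68.2, 78.0 and 243 FPKM in DS-5272 samples. Every treated mouse was higher, and replicate 3 far more so than the others. The mean was 48.2 ± 3.12 and 130 ± 98.5 FPKM (SD, n = 3 each), a ratio of 2.69 and a difference of 1.16 on the log2 scale (SE 0.45, 95% interval 0.08 to 2.24). It did not pass in limma (adjusted p = 0.074) and passed with the block (adjusted p = 0.041). Here too any pairing of the mice gives 3 of 3 higher. Without DS-5272 replicate 3 the difference was smaller and passed (0.59, limma, adjusted p = 0.0102), with the remaining treated mice at 68.2 and 78.0 FPKM. Without DS-5272 replicate 1 it was 1.5 and passed too (adjusted p = 0.039).

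**Figure D2:**
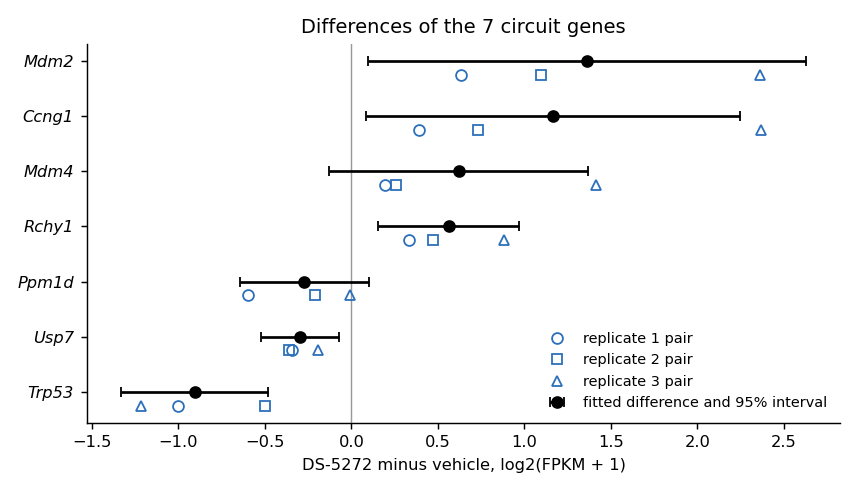
Difference between DS-5272 and vehicle samples of each circuit gene on the log2(FPKM + 1) scale, with the limma estimate and 95% interval in black and the 3 same-numbered differences as open blue points. The intervals of Trp53 and Usp7 lie below 0, those of Mdm2, Ccng1 and Rchy1 above 0, and those of Mdm4 and Ppm1d span 0.

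In the vehicle mice the order of mean FPKM was Trp53, Usp7, Ccng1, Mdm2, Mdm4, Rchy1 and Ppm1d. Each neighboring pair had ranges that did not overlap, except Usp7 and Ccng1, of which Usp7 was higher in 2 of 3 mice. With DS-5272 the order was Ccng1, Mdm2, Usp7, Trp53, Mdm4, Rchy1 and Ppm1d, and only the ranges of Rchy1 and Ppm1d stayed apart. Trp53 thus went from the first to the fourth place, while its level and that of Usp7 after treatment did not differ beyond their spread. Among all genes tested, the vehicle levels ran from the 49.4th percentile for Ppm1d to the 89.2nd for Trp53.

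Ratios between members of the circuit within 1 sample do not depend on how the libraries were scaled against each other. The ratio of Mdm2 to Trp53 FPKM was 0.322, 0.569 and 0.565 in the vehicle mice and 1.03, 1.76 and 7.0 in the DS-5272 mice. By FPKM, Mdm2 was below Trp53 in every vehicle mouse and above it in every treated mouse. In DS-5272 replicate 1 the 2 genes were nearly equal (42.6 and 41.5 FPKM). Which of them is higher there depends on the transcript lengths used, which are not given. On the log2 scale the ratio went from -1.09 ± 0.47 to 1.22 ± 1.43 (SD, n = 3 each), a difference of 2.31 (exact permutation p = 0.1, the smallest possible), and 1.52 to 2.90 with any one mouse left out. The ratio of Mdm2 to its paralog Mdm4 was 1.46, 1.93 and 2.15 in vehicle and 1.99, 3.47 and 4.09 in DS-5272 samples. Its groups overlapped, and the log2 difference of 0.74 had an exact permutation p of 0.2. Between same-numbered mice this ratio was higher with DS-5272 in 3 of 3 pairs, by 0.45, 0.85 and 0.93 on the log2 scale, for which an exact sign-flip test cannot go below p = 0.25. For 2 further ratios, chosen after the values were seen, the groups did not overlap. Mdm4 to Trp53 was 0.221 to 0.295 in vehicle and 0.507 to 1.71 in DS-5272 samples, and Ccng1 to Ppm1d was 3.38 to 3.76 and 6.96 to 17.8.

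**Figure D3:**
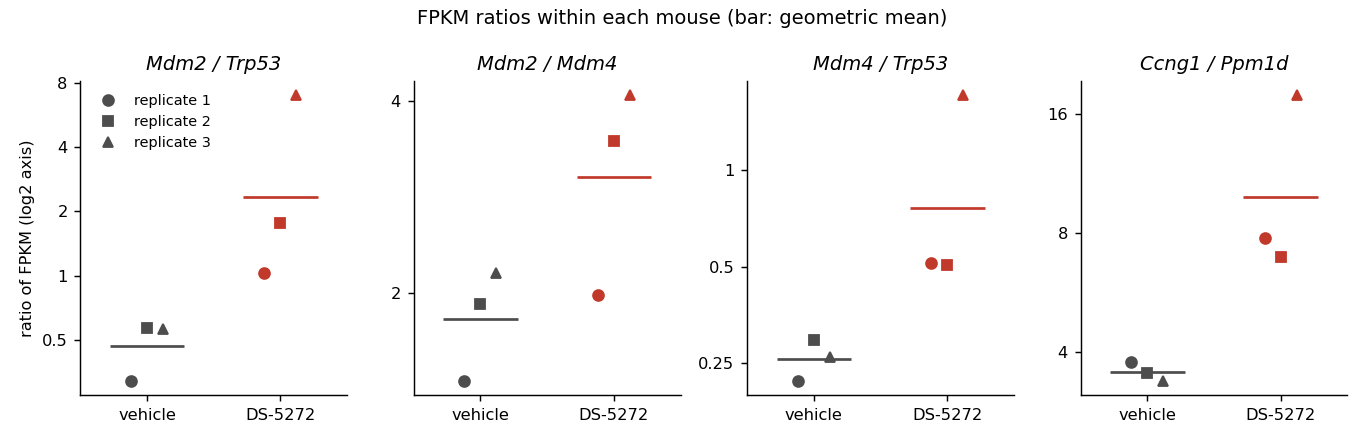
Ratios of FPKM between circuit genes within each mouse, on a log2 axis, for the 3 vehicle (gray) and 3 DS-5272 (red) mice, with the geometric mean as a bar. The Mdm2 to Trp53 ratio lies below 1 in every vehicle mouse and above 1 in every DS-5272 mouse, whereas the Mdm2 to Mdm4 ratios of the groups overlap, although every treated mouse lies above the vehicle mouse of its own number.

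The spread among the treated mice was wide for some members and narrow for others. By the SD of log2(FPKM + 1) over the DS-5272 mice, Mdm2 was at the 98.5th percentile of all genes tested, Ccng1 at the 97.8th and Mdm4 at the 94.7th. In contrast, Usp7 was at the 14.7th. In the vehicle mice Mdm4 was at percentile 1.1 and Mdm2 at percentile 88.9. Of the 3 treated mice, replicate 3 had the highest level of the 6 genes other than Trp53 and the lowest level of Trp53. Replicate 1 had the lowest level of the same 6 genes. This order depends in part on the scaling, since the FPKM sum was 499229, 579884 and 661184 in the DS-5272 replicates 1, 2 and 3. With values scaled to a common total, replicate 3 was highest for 5 genes and replicate 1 lowest for 3, and the order of Usp7 turned around, at 39.9, 37.0 and 34.5 in replicates 1, 2 and 3. The direct p53 targets outside the circuit were ordered in a like way, with 33 of 36 (91.7%) highest in DS-5272 replicate 3, where 48.7% of all genes tested were highest. With values scaled to a common total these were 28 of 36 (77.8%) and 19.5%. Replicate 3 had the lowest estimated depth and replicate 1 the highest macrophage and erythroid marker sums, and their part in this order was not tested.

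**Figure D4:**
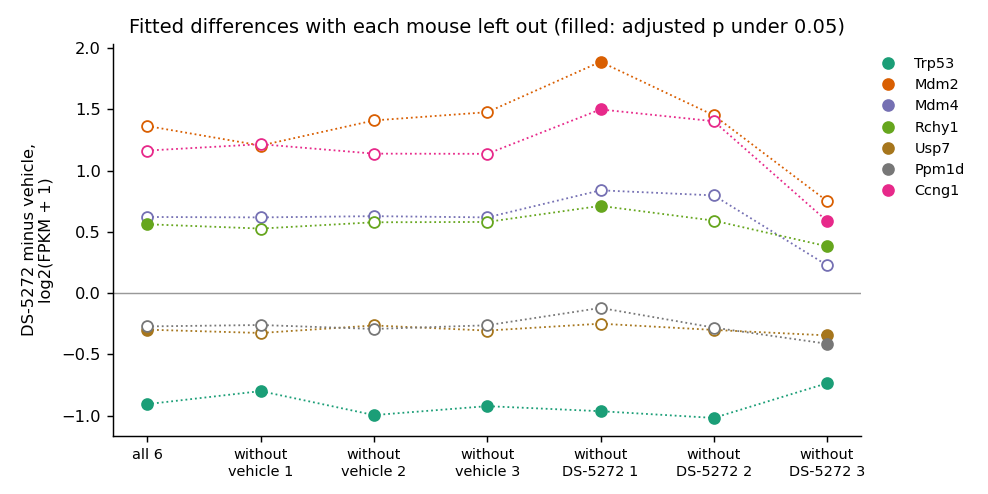
Difference between DS-5272 and vehicle samples of each circuit gene on the log2(FPKM + 1) scale in all 6 mice and with each mouse left out, filled where the limma adjusted p is under 0.05 and open where it is not. Without DS-5272 replicate 3, Mdm2 falls from 1.36 to 0.75 and Ccng1 from 1.16 to 0.59, while Trp53 stays filled throughout.

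The wider pathway was read in 8 lists with 137 genes, of which 126 were tested. Of these 22 were called higher (17.5%) and 25 lower (19.8%) in limma, against 24.2% and 22.0% of all genes tested. Among the direct p53 targets outside the circuit, 7 of 36 tested were called higher (19.4%, below the 24.2% of all genes tested) and 1 lower (2.78%, against 22.0%). The list median was 0.69 on the log2 scale against 0.04 for all genes tested. With the block, 17 were higher (47.2%, against 30.3% of all genes) and 2 lower. The 7 higher became 3 without the filter on low genes, 12 without DS-5272 replicate 1, 2 without vehicle replicate 1 or 2 and 3 without vehicle replicate 3, and without DS-5272 replicate 3 the median was 0.37. Sesn2, a stress-inducible inhibitor of mTORC1 signaling, had 6.81 to 7.79 FPKM in vehicle and 20.3 to 52.7 FPKM in DS-5272 samples (1.91 on the log2 scale, SE 0.33, limma, adjusted p = 0.00593). Trp53inp1, a p53-induced regulator of cell death and autophagy, rose by 1.85 (SE 0.54, adjusted p = 0.0294, limma). The 1 gene that fell was Lrdd (Pidd1), which encodes a death domain protein, at -0.71. Cdkn1a (p21), the classic mediator of p53-dependent arrest, is given here though it did not pass and was chosen after its values were seen. It had 14.8, 28.1 and 25.5 FPKM in vehicle and 32.3, 117 and 485 FPKM in DS-5272 samples (2.43, SE 0.89, limma, adjusted p = 0.061, with the block 0.0137).

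Genes whose products modify p53 or its regulators were called in both directions, and the shares are given for reading against the 24.2% higher and 22.0% lower of all genes tested. Of 18 other ubiquitin ligases reported to act on p53, 3 rose (16.7%) and 5 fell (27.8%), with a median of -0.11, and 3 fell without vehicle replicate 3. The largest rises were Rnf34 (0.72) and Rfwd2 (Cop1, 0.63), and the largest falls Trim28 (-1.27, adjusted p = 0.00537 in limma) and Rfwd3 (-0.71). Of 10 other deubiquitinases, 1 rose, Otud5 (0.56), a call that was lost with a common total and when DS-5272 replicate 2 or any one vehicle mouse was left out, and 3 fell, among them Usp11 (-0.98) and Usp10 (-0.89), which removes ubiquitin from p53 in the cytoplasm. Of 17 kinases, 2 rose (11.8%), Cdk5 (0.56) and Mapk14 (0.34), and 7 fell (41.2%), with a median of -0.28. In limma the 2 higher became 0 without vehicle replicate 1 or 2 (2 and 1 at an unadjusted p under 0.05) and 1 without DS-5272 replicate 2 or 3 or vehicle replicate 3, and the 7 lower became 4 without vehicle replicate 1. The largest falls were in Plk1 (-2.62) and Chek1 (-1.61), both of which also serve the cell cycle, and the mitotic kinase Aurka (-1.35) and the damage kinases Atm (-0.88) and Atr (-0.85), named after their values were seen, fell as well. Of 12 acetylation and methylation enzymes, 3 rose (25%), led by Kat2b (0.62) and Ep300 (0.49), and 5 fell (41.7%), led by Prmt5 (-1.23) and Smyd2 (-1.08). In limma the 3 higher became 0 with a common total (0 at an unadjusted p under 0.05), 0 without vehicle replicate 2 or 3 (2 and 3 unadjusted) and 1 without vehicle replicate 1. The 5 lower became 1 without vehicle replicate 1 or 2 and 3 without vehicle replicate 3.

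Inhibitors of Mdm2, such as Arf, ribosomal proteins and nucleolar factors, gave no gene called higher of 13 tested in limma, against 24.2% of all genes tested. Also at an unadjusted p under 0.05, 0 were higher. The 3 that fell (23.1%, near the 22.0% of all genes tested) were Gnl3 (-1.32), Ncl (-1.29) and Npm1 (-1.20), which encode nucleolar proteins. With the block 6 of 13 fell, against 24.9% of all genes tested. With a common total 7 of 13 fell, where 3555 of all 11130 genes tested fell. Cdkn2a, which encodes Arf as well as p16 and was named after its values were seen, had 12.5 to 20.01 FPKM in vehicle and 6.06 to 14.5 FPKM in DS-5272 samples. It did not pass in limma (-0.63, adjusted p = 0.136) and passed with the block (adjusted p = 0.0119), and its p16 and Arf transcripts were not separated. Of 17 tested partners of cyclin G1 and Wip1, 4 rose (23.5%, near the 24.2% of all genes tested) and 1 fell (5.88%, against 22.0%). There were 2 higher without vehicle replicate 2 and 4 lower with a common total. Ppp2r5b, a regulatory subunit of PP2A, had 4.83, 5.82 and 6.14 FPKM in vehicle and 15.6, 14.5 and 17.7 FPKM in DS-5272 samples (1.36, SE 0.13, limma, adjusted p = 0.00123). Unlike Ccng1, it was close to uniform among the treated mice. Ppm1h, a phosphatase paralog of Ppm1d, rose by 0.73, and Ppm1g fell by 0.85. In the list of p53 relatives and ASPP partners, only 3 of 6 genes were tested. Of these 2 rose, Ppp1r13b (0.79) and Trp53bp2 (0.70), where 24.2% of all genes tested rose. When any one vehicle mouse was left out, 1 of them passed. In limma 0 were lower, also at an unadjusted p under 0.05.

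**Figure D5:**
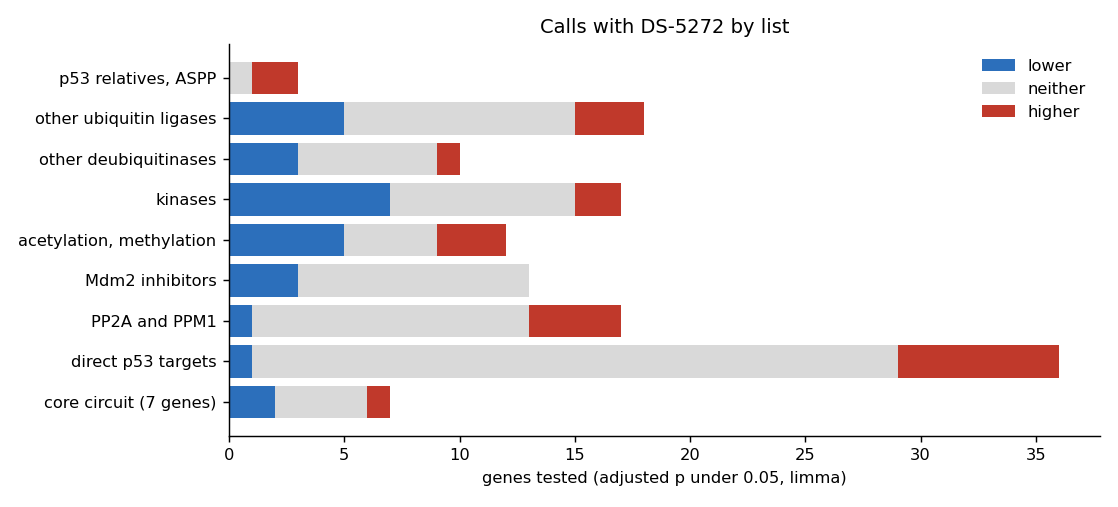
Number of genes called lower, neither or higher with DS-5272 (limma, adjusted p under 0.05) in the circuit of 7 genes and in each of the 8 lists of the wider pathway. The direct p53 targets hold 7 higher (19.4%) and 1 lower (2.78%) of 36, and the kinases 2 higher (11.8%) and 7 lower (41.2%) of 17. Of all genes tested, 24.2% were called higher and 22.0% lower.

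The genes whose pattern over the 6 mice was nearest to each member were found by the root mean square difference of log2(FPKM + 1) after each gene's own mean was subtracted. Nearest to Trp53 were Srsf1 (0.037), 9130206I24Rik and Cep57l1. Nearest to Mdm2 were Ear6 (0.171), Gm19955 and D630023F18Rik, none of them closer than 0.17. Nearest to Ccng1 were Gm16197 (0.110), Kank3 (0.146) and the p53 target Zmat3 (0.175), which had 1.52 to 1.94 FPKM in vehicle and 3.63, 3.38 and 17.3 FPKM in DS-5272 samples. Mdm4 was nearest to Fam53b (0.064), Gm3435 and Ptplb, Rchy1 to Whsc1l1 (0.016), Otud5 (0.025) and Srgap2, Ppm1d to Phf14 (0.041), Hace1 and Wdr96, and Usp7 to Tbc1d30 (0.022), Mettl10 and Fbxl6. Within the circuit the closest pairs were Ppm1d and Usp7 at 0.128, Mdm4 and Rchy1 at 0.223, and Mdm2 and Ccng1 at 0.310, and the farthest was Trp53 and Mdm2 at 1.42.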

How the data were processed

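RNA was measured in sorted MLL-AF9 leukemia cells of 6 mice, 3 per group, grouped by the treatment in the sample labels. The authors trimmed reads with cutadapt 1.8.1, aligned them to GRCm38 with TopHat2 2.1.1 and computed the deposited FPKM values with Cufflinks 2.2.1, as the submitters' processing notes and the methods name them. The annotation is not given in the sources used here. FPKM are not counts, so no count model was used. Lines sharing a symbol were summed (435 names stood on more than 1 line), and 433 lines joining several genes were kept as they are. The 11130 genes whose mean reached 1 FPKM were tested on log2(FPKM + 1), a scale that understates changes of low genes, with limma 3.58.1 (R 4.3.3, lmFit and eBayes with a trend, two-sided, Benjamini-Hochberg), after a test on simulated data. Single values had an exact permutation test. Samples with the same replicate number had positively correlated deviations (0.66, 0.21 and 0.43 for replicates 1, 2 and 3). Of the different-numbered pairs, vehicle 2 with DS-5272 3 (0.34) and vehicle 3 with DS-5272 2 (0.18) were positive too. The rest were negative (-0.58 to -0.24). Replicates 2 and 3 were thus not clearly matched by number. A paired fit, blocked on that number, is printed beside a result whose call it changes. The labels name no shared litter, batch or day. Named genes were all members, genes whose exons overlap a member, the 2 largest rises and falls past the threshold in each list, the 3 genes nearest in pattern to each member, and the markers. Genes named outside this rule are marked as chosen after their values were seen. The order of the treated mice under other scalings was added after seeing the data. The members and lists were chosen with earlier results of these data known. Alternatives were another pseudocount, filters, 4 other scalings, no trend, the highest line per symbol, the block, a fold minimum and each mouse left out. Promoter and position searches used RefSeq (GRCm38.p6) and GENCODE M21. Depth was estimated, since the values hold no counts. Numbers came from Python 3.11.15 with numpy 2.4.6, pandas 2.3.3, scipy 1.17.1 and matplotlib 3.10.9.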

Additional observations from a re-analysis of the deposited data

How the results depend on the processing

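The direction of all 7 circuit genes was the same in every alternative fitted. The 6 with groups that did not overlap became 6 with a common total, without Mdm4 and with Ppm1d. They became all 7 with a common upper quartile and with the median ratio, where 62.8% and 62.5% of all genes tested did not overlap. The number of the 7 called higher was 1, and it was 0 with values scaled to a common total (2 at an unadjusted p under 0.05, limma), 0 without the filter on low genes (1 unadjusted), 0 with a log2 fold change of at least 1, 3 with the replicate block, and 0 to 3 with 1 mouse left out. The number called lower was 2, and it was 0 with a log2 fold change of at least 1 and 1 to 3 with 1 mouse left out. For the 8 lists, 22 higher became 35 with the block, 7 with the fold minimum and 7 to 30 with 1 mouse left out (9, 7 and 11 without vehicle replicates 1, 2 and 3). The 25 lower became 38 with a common total, 9 with the fold minimum and 16 to 25 with 1 mouse left out, fewest without vehicle replicate 2. Over all genes tested, 2697 higher and 2451 lower became 1713 and 3555 with a common total, 2233 and 3179 with a common upper quartile, and 978 and 621 with the fold minimum. With 1 mouse left out they ranged from 1623 to 2934 and from 1389 to 2432, with 1623 and 1389 without vehicle replicate 2, and 1492 lower without vehicle replicate 3. The median of all genes tested was 0.042 and became -0.194 with a common total. The log2 ratio of Mdm2 to Trp53 differed by 1.52 to 2.90 and that of Mdm2 to Mdm4 by 0.53 to 1.05 with 1 mouse left out. The block changed the calls of Mdm2 and Ccng1 and of no other circuit gene. The cause of these shifts was not tested.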

Other observations

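Wrap53, the gene next to Trp53 that is transcribed in the opposite direction, was read after its values were seen and shares no annotated exonic sequence with Trp53. It had 10.8, 12.6 and 11.7 FPKM in vehicle and 6.92, 7.76 and 7.15 FPKM in DS-5272 samples. It fell by 0.61 on the log2 scale (SE 0.10, limma, adjusted p = 0.00549), and its groups did not overlap.

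Some direct p53 targets that did not pass, and Ccng2 from another list, were also read after their values were seen. Phlda3, a p53-induced inhibitor of Akt, had 1.63, 1.38 and 0.614 FPKM in vehicle and 1.63, 4.52 and 49.0 FPKM in DS-5272 samples (limma, adjusted p = 0.132). Psrc1 had 4.33 to 5.23 FPKM in vehicle and 2.87, 5.60 and 59.8 FPKM in DS-5272 samples (limma, adjusted p = 0.396). Bbc3, which encodes the pro-apoptotic protein PUMA, had 3.39, 8.03 and 9.43 FPKM in vehicle and 3.85, 17.2 and 38.3 FPKM in DS-5272 samples (limma, adjusted p = 0.290, with the block 0.0376). Ccng2, the paralog of Ccng1 in the list of partners of cyclin G1 and Wip1, had 9.15 to 9.54 FPKM in vehicle. In DS-5272 samples Ccng2 had 9.74, 11.2 and 18.2 FPKM (limma, adjusted p = 0.165). In each of these genes the highest treated value was that of DS-5272 replicate 3. Since they were chosen after their values were seen, nothing is read from this. Of all 36 direct p53 targets tested, 33 (91.7%) were highest there, against 48.7% of all genes tested.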
